A study of Rattus norvegicus with 19 samples.

Results

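The calcitonin gene-related peptide (CGRP) and adrenomedullin system was followed in rat somatosensory cortex through 7 genes: the ligand genes Calca, Calcb and Adm, the receptor gene Calcrl and the accessory protein genes Ramp1, Ramp2 and Ramp3. They were 7 of the 14224 genes that a probe set of the array named alone, and 10 probe sets measured them. Members were chosen by gene symbol, and where several probe sets named a gene, the one brightest on average across the 19 arrays was used. The 7 genes were put together with earlier results of these arrays known, so their p-values describe the fits and are not independent evidence.

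CGRP and adrenomedullin are peptides of the calcitonin family. CGRP is best known from perivascular sensory nerve fibres, where it dilates cerebral and meningeal arteries and takes part in migraine, while adrenomedullin is made by many cells, endothelium and astrocytes among them, and acts on vessels and on endothelial barriers. Both bind the calcitonin receptor-like receptor, which reaches the cell surface only with a receptor activity-modifying protein (RAMP): with RAMP1 it forms the CGRP receptor, and with RAMP2 or RAMP3 the adrenomedullin receptors. The receptors couple mainly to stimulatory G proteins and raise cyclic AMP.

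The tissue was somatosensory cortex of adult male Wistar rats, perfused in place with artificial cerebrospinal fluid carrying the agent. The first set of animals gave 1 array each for 2 mM sodium deoxycholate (DOC, a bile acid salt used to open the blood-brain barrier) at 7, 24 and 48 h, for bovine serum albumin (0.1 mM) at 8, 24 and 48 h, for TGF-β1 (10 ng/ml) at 8, 24 and 48 h, and for 1 sham-operated rat at 24 h. In the second set, all at 24 h, 4 rats received albumin plus blockers of TGF-β signalling (an antibody to TGF-β receptor 2 at 50 µg/ml and SB431542, an inhibitor of the TGF-β receptor 1 kinase, at 100 µM), 3 received albumin and 2 were sham-operated. Blockers without albumin were not tested. No sham was taken at 7, 8 or 48 h, so agent and time after the operation cannot be told apart in the first set beyond 24 h. The tissue is a mixture of cell types, and in such bulk samples fewer cells of a type and less RNA per cell cannot be told apart.

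All values are log2 probe set signals as the authors deposited them, so that a difference of 1 is a doubling. Array medians were 5.09 to 5.17 in the first set and 6.05 to 6.18 in the second, so levels were compared only within a set, and only for the same probe set. Cortical neuron markers were measured on every array, with a mean log2 signal over the 10 markers of 11.46 or higher. Albumin replicate 2 of the second set stood somewhat apart from the rest: its median correlation within the set was 0.981, and the others reached 0.992 to 0.996. Genes at a log2 signal above 4 on at least 2 arrays of a set were tested with limma, and p-values were adjusted by the Benjamini-Hochberg method over the 10333 genes of the second set or the 10022 of the first that passed. In the second set 6 of the 7 genes passed this filter, all but Calcb, and in the first set 5 did, all but Adm and Calcrl.

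Calca, which gives calcitonin or CGRP through alternative splicing, lies on chromosome 1 at chr1:178312636-178317588 of the GRCr8 assembly, and Calcb, which encodes the second form of CGRP, at chr1:178399634-178404654, with 82045 bases between them. Adm, the adrenomedullin gene, lies on the same chromosome at chr1:174164178-174182372. Calcrl lies at chr3:89835071-89932616, Ramp1 at chr9:99213031-99263696, Ramp2 at chr10:86689148-86690956 and Ramp3 at chr14:85741314-85758813. The 250 bases before a transcript start, the one that RefSeq's promoter table uses, are shown for Calca and Adm, the ligand genes whose signals stood higher on every albumin array of the second set than on either sham array and for which RefSeq promoters were at hand. The Calca region is chr1:178317530-178317779 on the minus strand and the Adm region chr1:174179950-174180199 on the plus strand of GRCr8, both written 5′ to 3′ from RefSeq, with capitals marking TGACG, the half-site of the cyclic AMP response element. The start used lies within the span of each gene, so the Adm region falls wholly inside that span and the Calca region overlaps its end.
Calca: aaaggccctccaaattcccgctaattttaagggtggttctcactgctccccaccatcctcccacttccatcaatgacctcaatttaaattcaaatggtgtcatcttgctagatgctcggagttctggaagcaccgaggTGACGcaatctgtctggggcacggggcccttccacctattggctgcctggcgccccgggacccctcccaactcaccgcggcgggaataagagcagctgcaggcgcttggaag
Adm: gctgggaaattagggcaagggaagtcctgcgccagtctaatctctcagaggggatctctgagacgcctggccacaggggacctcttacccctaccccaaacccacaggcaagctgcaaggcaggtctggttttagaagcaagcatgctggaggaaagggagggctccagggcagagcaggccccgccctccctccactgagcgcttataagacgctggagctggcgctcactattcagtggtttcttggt
In the window from 250 bases before to 50 bases after the start, searched on both strands, Calca held 1 TGACG, at position -112 from the start, and Adm held none. TGACG was present in 21.2% of the 33469 promoters of the same length, so such a match is common. The full element TGACGTCA (which contains TGACG), in 1.83% of promoters, was found in neither gene, and nor were the hypoxia response core ACGTG, in 19.3%, the AP-1 site TGANTCA, in 7.33%, or the TATA box letters TATAAA, in 14.2%. These 5 motifs had no match in the windows of Calcrl, Ramp1 and Ramp3 either.

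The second set asked whether albumin changes cortical transcription at 24 h and whether blocking TGF-β signalling alters that. The ligand genes stood out among the 7: Calca had the widest range of all, Adm was higher on each albumin array than on any other array of the set, and the RAMP genes moved little apart from 1 albumin array. None of the 6 tested members passed the adjusted threshold of 0.05 for albumin against sham, where 1.33% of all genes tested did. At an unadjusted p under 0.05, 3 of the 6 passed by limma (Calca, Adm and Calcrl), against 21.4% of all genes. Calca and Adm were higher on every albumin array than on either sham array, as were 22.2% of all genes tested.

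Calca had log2 signals of 9.11, 11.46 and 10.55 on the albumin arrays, against 4.42 and 6.15 on the sham arrays. Every albumin value lay above both sham values, by nearly 3 log2 units at the closest. The fitted difference was 5.09 ± 1.24 (SE), or 34.0-fold, with an adjusted p of 0.0768 by limma. On the albumin plus blockers arrays Calca had 7.77, 7.25, 8.82 and 4.43. All 4 values lay below the lowest albumin value, and 1 of them, replicate 4, was at the level of the lower sham. The difference of albumin plus blockers from albumin was -3.31 ± 1.03, with an adjusted p of 0.201, and that of albumin plus blockers from sham was 1.78 ± 1.17, with an adjusted p of 1. The 4 blocker arrays spread over more than 4 log2 units, so the size of the difference is poorly fixed. Without albumin plus blockers replicate 4 the spread of the fit shrank, and the same difference of albumin from sham, 5.09, had an adjusted p of 0.0384. In the other 8 fits with 1 array left out Calca did not pass. Without albumin replicate 2, for example, the difference was 4.55 (adjusted p = 0.13 by limma).

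Adm had log2 signals of 5.96, 5.53 and 6.53 on the albumin arrays, against 4.08 and 4.86 on the sham arrays. The difference was 1.53 ± 0.31, or 2.90-fold, with an adjusted p of 0.0564. The albumin plus blockers arrays had 4.57, 4.86, 4.82 and 4.72, a narrow band that overlapped the sham values and lay below all albumin values. Albumin plus blockers differed from albumin by -1.27 ± 0.26 (adjusted p = 0.116) and from sham by 0.27 ± 0.29 (adjusted p = 1). Without albumin replicate 2 the albumin difference from sham was 1.77 and its adjusted p 0.0408. In the other 8 fits with 1 array left out Adm did not pass.

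Calcb was too dim for the filter, since only albumin replicate 2 exceeded 4 in this set. Its log2 signals were 3.81, 7.53 and 3.88 on the albumin arrays, against 2.80 and 2.42 on the sham arrays. In a fit without the filter the difference was 2.46 ± 1.04 (adjusted p = 0.278). The albumin plus blockers arrays had 2.81, 2.78, 2.81 and 2.49, near the sham values, and differed from albumin by -2.36 ± 0.87 (adjusted p = 0.318) in that fit. Albumin replicate 2, the array with the highest Calcb, also had the highest Calca. Calca and Calcb are similar in sequence, and whether the probes of one read transcripts of the other was not tested.

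**Figure D1:**
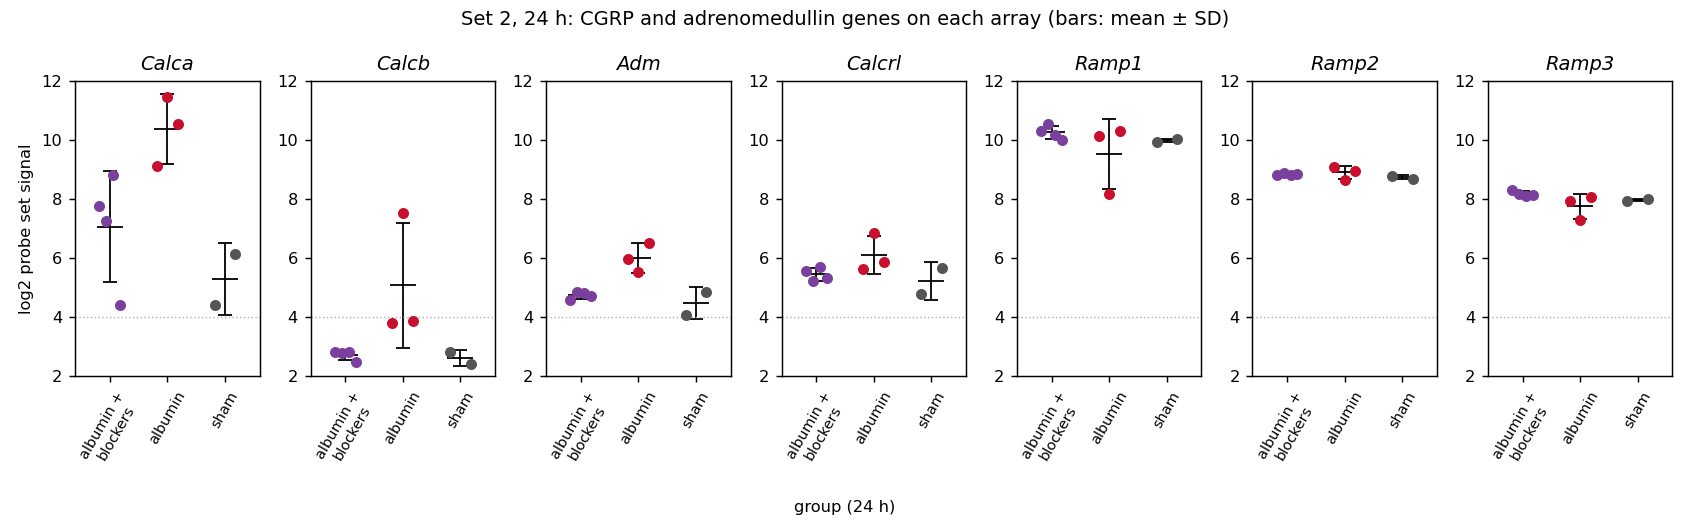
Log2 probe set signal of each of the 7 genes on the 9 arrays of the second set (points), by group, with the group mean and SD (bars). The dotted line is the filter at 4. Calca spanned 4.42 to 11.46 and the 3 albumin arrays were highest for Calca, Calcb and Adm, while Ramp1 and Ramp3 had 1 low albumin array, replicate 2.

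Calcrl, the receptor itself, had log2 signals of 5.63, 6.85 and 5.86 on the albumin arrays, against 4.78 and 5.68 on the sham arrays. The groups overlapped, and the difference of 0.88 ± 0.38 had an adjusted p of 0.233. With the blockers Calcrl had 5.57, 5.21, 5.69 and 5.34, a difference from albumin of -0.66 ± 0.32 (adjusted p = 0.332). The highest Calcrl value was again that of albumin replicate 2. A second, dimmer Calcrl probe set had 3.52, 4.43 and 3.13 on the albumin arrays, against 2.65 and 2.99 on the sham arrays, with only replicate 2 above 4.

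Ramp1, the partner that makes the CGRP receptor, had log2 signals of 10.15, 8.18 and 10.30 on the albumin arrays, against 9.94 and 10.03 on the sham arrays. The low value of replicate 2 set the mean difference of -0.44 ± 0.56 (adjusted p = 0.648), which was 0.24 without it. With the blockers Ramp1 had 10.31, 10.54, 10.16 and 10.02 and differed from albumin by 0.71 ± 0.47 (adjusted p = 0.434), or by 0.03 without albumin replicate 2. Ramp2, which makes the main adrenomedullin receptor of endothelium, had 9.10, 8.65 and 8.96 on the albumin arrays, against 8.79 and 8.69 on the sham arrays, a difference of 0.17 ± 0.14 (adjusted p = 0.495). Its 4 albumin plus blockers values lay between 8.82 and 8.89, and the difference from albumin was -0.06 ± 0.11 (adjusted p = 0.807). Of the 7 genes it varied least in this set.

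Ramp3, the third partner, had log2 signals of 7.94, 7.28 and 8.06 on the albumin arrays, against 7.95 and 7.99 on the sham arrays. The albumin difference of -0.21 ± 0.21 (adjusted p = 0.568) rested on replicate 2 as well and was 0.03 without it. The albumin plus blockers arrays had 8.30, 8.16, 8.11 and 8.14, all above the 3 albumin values, with a difference of 0.42 ± 0.18 (adjusted p = 0.293), or 0.18 without albumin replicate 2.

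Against albumin, none of the 6 tested members passed with the blockers, where 0.0194% of all genes did. At an unadjusted p under 0.05 there were 3 (Calca and Adm lower, Ramp3 higher), against 16.6% of all genes. Against sham, none passed with the blockers, where 0% of all genes did, and none had an unadjusted p under 0.05, against 4.3% of all genes. Calca and Adm lay below the albumin values on all 4 blocker arrays, and 8.71% of all genes tested did the same, while Ramp3 lay above them, as 7.32% did. The comparisons of albumin with sham and of albumin plus blockers with albumin share the 3 albumin arrays, so a gene high on those arrays by its own spread is higher in the first and lower in the second.

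In the first set Calca climbed with time on all arrays of treated cortex, whichever agent was given, by about the same amount. With DOC its log2 signal was 5.23 at 7 h, 7.69 at 24 h and 9.83 at 48 h. With albumin it was 5.30 at 8 h, 8.06 at 24 h and 10.09 at 48 h, and with TGF-β1 5.18 at 8 h, 8.49 at 24 h and 9.65 at 48 h. The sham array, at 24 h, had 4.39, below all 9 treated arrays. The values of the 3 agents lay within 1 log2 unit of each other at each time, while consecutive times never overlapped.

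Over the 3 agents Calca rose by 2.84 ± 0.21 at 24 h over 7 or 8 h (7.16-fold, adjusted p = 0.0126) and by 4.62 ± 0.21 at 48 h over 7 or 8 h (24.6-fold, adjusted p = 0.000568). The second was the smallest p of the 10022 genes tested. The step between 24 and 48 h was 2.14 with DOC, 2.04 with albumin and 1.16 with TGF-β1. At 24 h, the time of the sham, the arrays stood above it by 3.30 with DOC (9.84-fold), 3.67 with albumin (12.7-fold) and 4.10 with TGF-β1 (17.1-fold), 1 array against 1. Averaged over the times and fitted with time as a term, the difference from sham was 3.19 ± 0.29 for DOC (adjusted p = 0.0294), 3.43 ± 0.29 for albumin (adjusted p = 0.0178) and 3.38 ± 0.29 for TGF-β1 (adjusted p = 0.0801). For TGF-β1 no gene of the 10022 passed, and Calca had the smallest p.

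These 3 comparisons share 1 sham array, which the fit assumes to vary like the treated arrays, and no other array stands for untreated cortex in this set. The calls against sham were lost without a time term (adjusted p = 0.615 for DOC and 0.891 for albumin) and, like the call at 24 h, without 1 of several treated arrays, for example TGF-β1 at 8 h (adjusted p = 0.0897 for DOC and 0.0767 at 24 h) or albumin at 8 h (adjusted p = 0.0625 for albumin). The call at 48 h held without any 1 array. Albumin differed from DOC by 0.23 ± 0.21 (adjusted p = 0.788) and TGF-β1 from DOC by 0.19 ± 0.21 (adjusted p = 0.625), so no difference between agents was detectable with 3 arrays each.

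**Figure D2:**
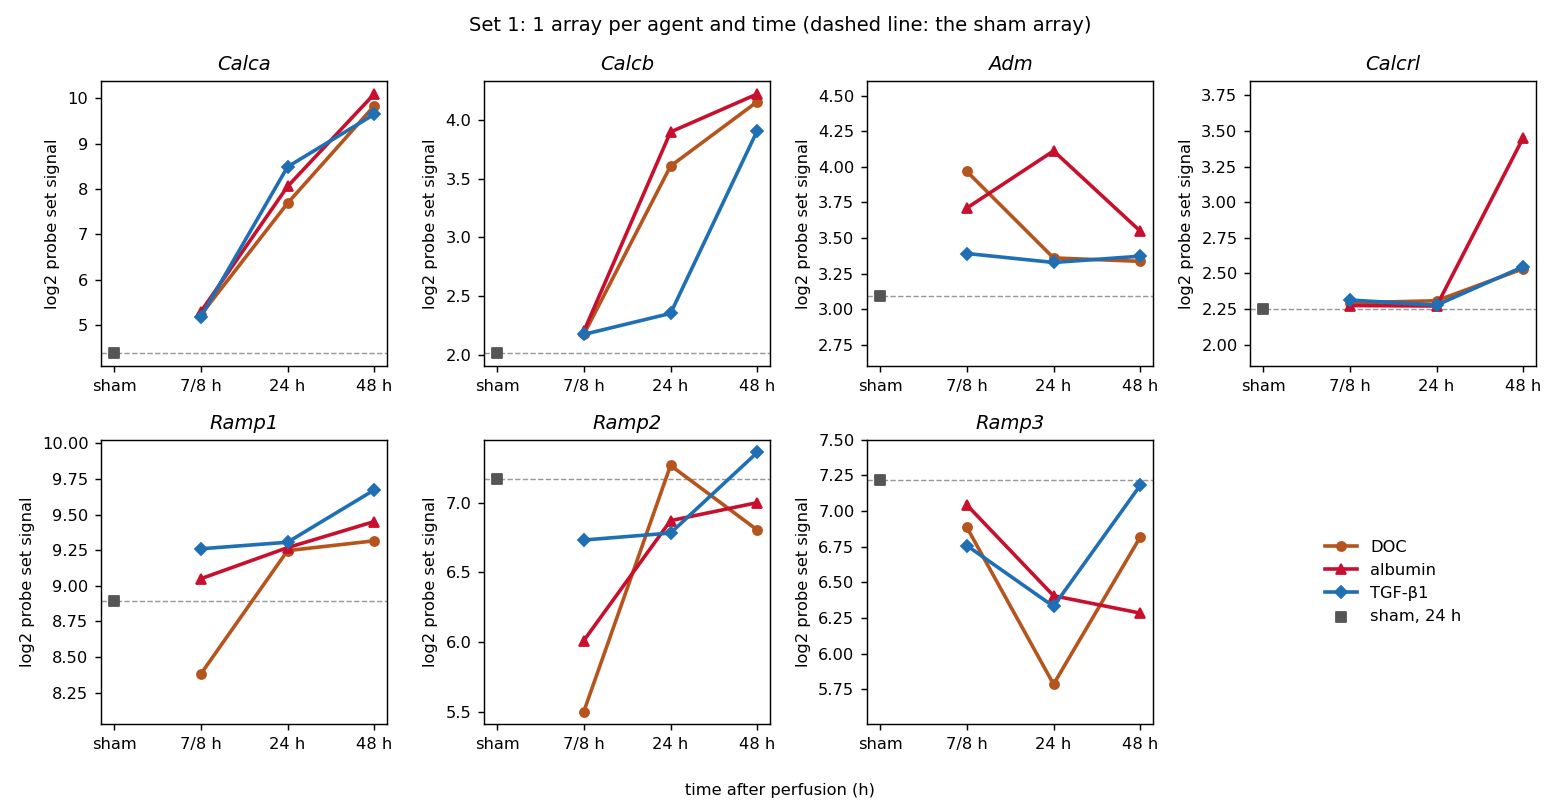
Log2 probe set signal of each gene in the first set by time (7 h for DOC and 8 h for albumin and TGF-β1 share a position), 1 array per point, with the single sham array (24 h) at the left and as a dashed line. The vertical axes differ between genes. Calca went up with time under all 3 agents, Calcb reached about 4 at 48 h, and Adm and Calcrl stayed almost wholly below the filter of 4.

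Calcb followed at much lower signal. With DOC its log2 signal was 2.17 at 7 h, 3.61 at 24 h and 4.16 at 48 h. With albumin it was 2.20 at 8 h, 3.90 at 24 h and 4.22 at 48 h, and with TGF-β1 2.17 at 8 h, 2.35 at 24 h and 3.91 at 48 h. The sham array had 2.01, so at 24 h the DOC and albumin arrays stood clear of it and the TGF-β1 array by 0.34. Calcb passed the filter only through 2 of the 48 h arrays, so its difference of 1.92 ± 0.29 between 48 h and 7 or 8 h (3.77-fold, adjusted p = 0.0146) had to be present for it to be tested at all. Its adjusted p was 0.0607 with no filter, and 0.0846 without DOC at 7 h, 0.0647 without albumin at 8 h and 0.0782 without TGF-β1 at 48 h. Between 24 h and 7 or 8 h it was 1.11 ± 0.29 (adjusted p = 0.172). The differences from sham were 1.30 for DOC (adjusted p = 0.172), 1.43 for albumin (adjusted p = 0.225) and 0.80 for TGF-β1 (adjusted p = 0.781).

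**Figure D3:**
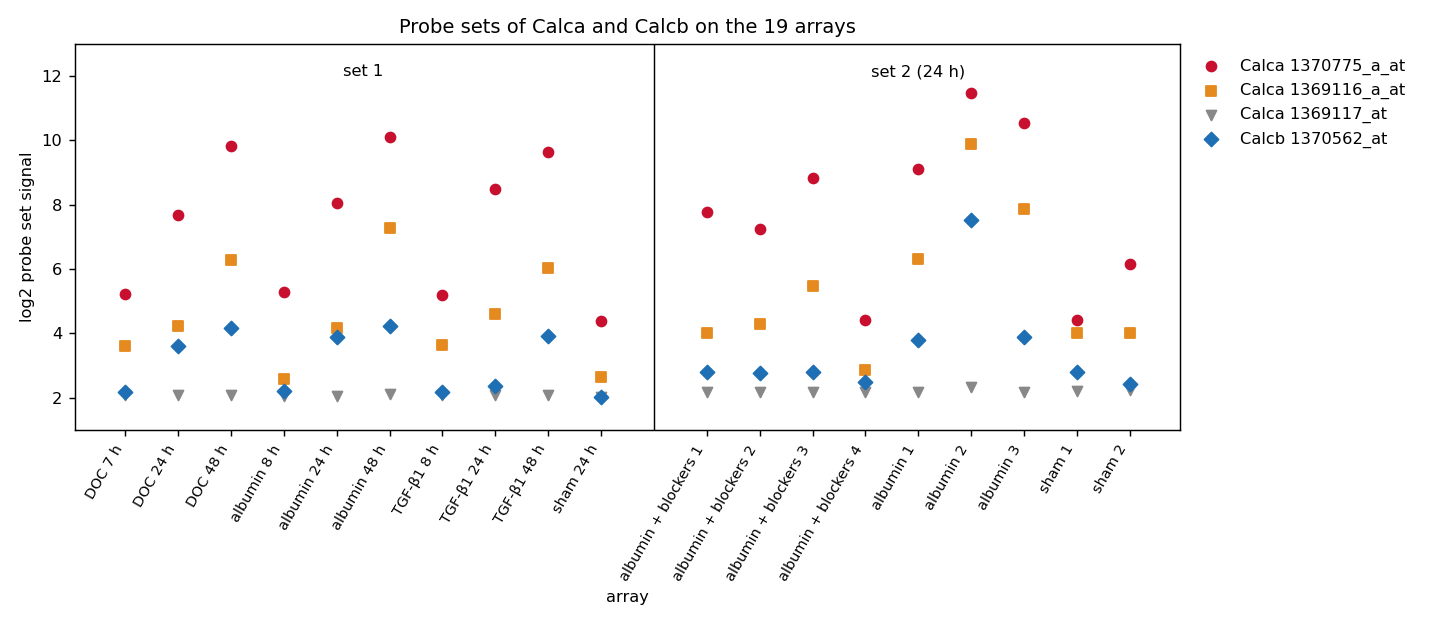
Log2 signals of the 3 Calca probe sets and the Calcb probe set on the 19 arrays, by set and group. The used Calca probe set (1370775_a_at) and the dimmer 1369116_a_at went up and down together, 1369117_at stayed between 2.03 and 2.33, and Calcb exceeded the filter of 4 in the second set only on albumin replicate 2.

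Calca had 3 probe sets, and the choice among them bears on its values. The one used, 1370775_a_at, ranged over 4.39 to 11.46 and 1369116_a_at over 2.59 to 9.88, while 1369117_at gave 2.03 to 2.33 and so carried no detectable change. With 1369116_a_at in its place, Calca had 6.32, 9.88 and 7.88 on the albumin arrays, against 4.01 and 4.03 on the sham arrays of the second set, a difference of 4.00 (adjusted p = 0.0842). With the blockers that probe set had 4.00, 4.30, 5.48 and 2.86, a difference from albumin of -3.86 (adjusted p = 0.121) and from sham of 0.14. Over time in the first set it gave a difference of 3.26 between 48 h and 7 or 8 h (adjusted p = 0.00823), but 1.06 between 24 h and 7 or 8 h (adjusted p = 0.314), and 2.08 for DOC against sham (adjusted p = 0.146) and 2.05 for albumin against sham (adjusted p = 0.229). The change at 48 h was therefore seen with both responsive probe sets and the calls at 24 h and against sham with 1. Which Calca product, calcitonin or CGRP, each probe set reads was not determined here.

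Adm stayed near the floor in the first set. With DOC its log2 signal was 3.97 at 7 h, 3.36 at 24 h and 3.34 at 48 h. With albumin it was 3.71 at 8 h, 4.11 at 24 h and 3.55 at 48 h, the second being the only Adm value above 4, and with TGF-β1 it was 3.39, 3.33 and 3.37 at 8, 24 and 48 h. The sham array had 3.09, below all 9 treated arrays. The albumin array at 24 h, the time and agent of the second set, stood above the sham by 1.02, where the second set gave 1.53. Calcrl lay between 2.27 and 2.55 on 8 of the 9 treated arrays, and at 3.45 with albumin at 48 h, against 2.25 in the sham, so its changes were not measurable in this set.

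Ramp1 was well above the filter on all arrays. With DOC its log2 signal was 8.38 at 7 h, 9.25 at 24 h and 9.32 at 48 h, with albumin 9.05, 9.27 and 9.45 at 8, 24 and 48 h, and with TGF-β1 9.26, 9.31 and 9.67. The sham array had 8.89. Its difference between 48 h and 7 or 8 h was 0.58 ± 0.17 (adjusted p = 0.115), with every 48 h array above every early one, and the DOC array at 7 h was lowest. Ramp2 had 5.50, 7.27 and 6.80 with DOC at 7, 24 and 48 h, 6.01, 6.87 and 7.00 with albumin at 8, 24 and 48 h, and 6.73, 6.78 and 7.36 with TGF-β1, against 7.17 in the sham. Its difference from 7 or 8 h was 0.89 ± 0.29 at 24 h (adjusted p = 0.247) and 0.97 ± 0.29 at 48 h (adjusted p = 0.112, or 0.0454 without DOC at 24 h). The DOC array at 7 h and the albumin array at 8 h lay farthest below the sham.

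Endothelial markers were low on the same early arrays: the mean log2 signal over 11 markers was 6.05 with DOC at 7 h, 6.35 with albumin at 8 h, 6.89 with TGF-β1 at 8 h and 7.13 to 7.45 at 48 h, against 7.07 in the sham. Over 48 h against 7 or 8 h, 5 of the 11 endothelial markers passed as higher (Cldn5, Ocln, Tek, Tie1 and Vwf) and none as lower, where 5.09% of all genes passed. Of the 11, 8 had a difference above 0 and the rest did not. The median of the 11 was 1.10 where the median of all genes was 0.01. Tie1 was above 4 only on the 48 h arrays, so it was tested only through them and nothing is read from its part in this count. Of the 5 tested pericyte markers, 2 rose (Abcc9 and Rgs5). The part of endothelial cells and pericytes in the Ramp2 values was not tested. Ramp3 had 6.89, 5.78 and 6.82 with DOC at 7, 24 and 48 h, 7.04, 6.41 and 6.28 with albumin at 8, 24 and 48 h, and 6.76, 6.33 and 7.18 with TGF-β1, against 7.22 in the sham. It was lower at 24 h than at 7 or 8 h under each agent, by -0.72 ± 0.26 over the 3 (adjusted p = 0.275), and all 9 treated arrays lay below the sham.

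Of the 5 members tested in the first set, 1 passed for DOC against sham, where 0.469% of all genes did, and 1 for albumin against sham, where 0.369% did, Calca in each. At an unadjusted p under 0.05 there were 2 in each, Calca and Calcb, against 18.7% and 11.9% of all genes. None passed for TGF-β1 against sham, where 0% of genes passed, and 1, Calca, had an unadjusted p under 0.05 by limma, against 7.48% of all genes. For 24 h against 7 or 8 h, 1 member passed (Calca), where 0.798% of all genes did, and 4 had an unadjusted p under 0.05, against 14.1%. For 48 h against 7 or 8 h 2 passed (Calca and Calcb), where 5.09% did, and 4 had an unadjusted p under 0.05, against 20.7%. On the 48 h arrays 4 of the 5 lay above all early values (all but Ramp3), as did 14.8% of all genes. Calcb is among those counted at 48 h and, at an unadjusted p, at 24 h and for DOC and albumin against sham. It was tested only through its 2 highest arrays, both at 48 h, so nothing is read from its part in these counts. Of the other 4, Calca alone passed at 48 h, 3 had an unadjusted p under 0.05, and 3 lay above all early values. None passed for albumin against DOC, where 0.00998% did and no member reached an unadjusted p under 0.05 against 7.47% of genes. None passed for TGF-β1 against DOC, where 0.0299% did and 1 member, Ramp1, had an unadjusted p under 0.05, against 20.8% of genes.

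**Figure D4:**
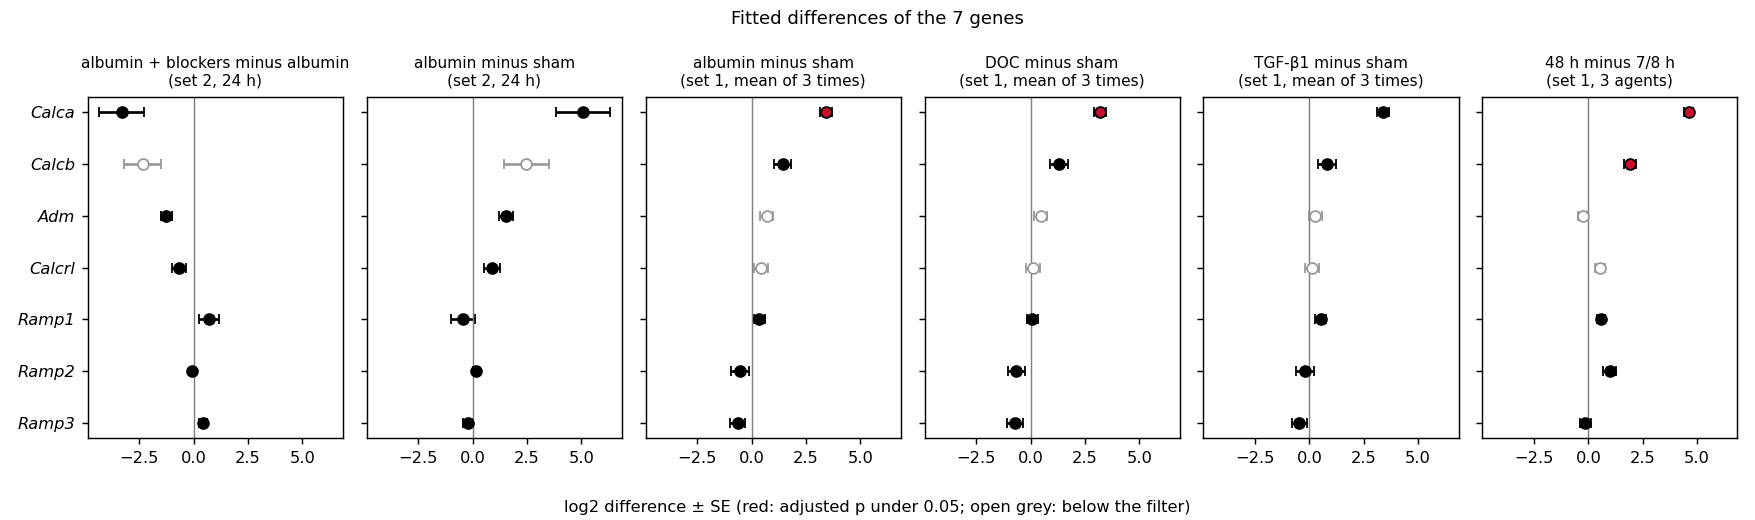
Fitted log2 differences of the 7 genes with their standard errors in 6 comparisons. Red points passed an adjusted p of 0.05, and open grey points come from a fit without the filter. Calca lay right of 0 in all comparisons with sham and between times, and left of 0 for albumin plus blockers minus albumin.

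Genes around the peptides and the receptor were read from lists of related genes. Of the enzymes that cut and amidate such peptides, Pam, Pcsk2 and Cpe were tested, and none passed in any comparison with sham, with the blockers or between times. For albumin against sham in the second set Pam differed by 0.19 (adjusted p = 0.726) and Cpe by -0.07 (adjusted p = 0.696), and for 48 h against 7 or 8 h Pcsk2 differed by -0.66 (adjusted p = 0.0595). Of the receptor partners, decoy receptors and peptidases, Crcp, Ackr3 and Ece1 were tested and none passed, while Calcr and Mme, the calcitonin receptor and the peptidase neprilysin, were at or below 4 on all arrays. Ece1, an endothelin-converting enzyme that also degrades CGRP inside cells, was nearest: it differed by 1.04 ± 0.20 for albumin against sham (adjusted p = 0.0551) and by -1.16 ± 0.17 for albumin plus blockers against albumin (adjusted p = 0.074).

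None of the 10 tested genes for G proteins, cyclic AMP and receptor desensitisation passed in those comparisons, with a median of -0.05 for albumin against sham where the median of all genes was 0.02. Among the cyclic AMP-responsive genes, none of 9 passed for albumin against sham, Fos being at 2.24 ± 0.81 (adjusted p = 0.170) and Crem, whose product binds cyclic AMP response elements, at 1.002 ± 0.46 (adjusted p = 0.256). Between 48 h and 7 or 8 h all 8 tested had a difference below 0, with a median of -0.83 where that of all genes was 0.01, and Crem fell by 0.85 (adjusted p = 0.0334). That was opposite to Calca over the same times, as were medians of -0.53 for DOC, -0.47 for albumin and -0.89 for TGF-β1 against sham in the first set. In the second set the median had the direction of Calca. It was 0.29 for albumin against sham, with 6 of 9 above 0. For albumin plus blockers against albumin it was -0.65, with 1 of 9 above 0, where the median of all genes was -0.003. A link of these genes to Calca was not tested. None of 10 hypoxia-responsive genes passed, although Adm is itself known as one. For albumin against sham their median was -0.19.

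Sensory and cholinergic neuron markers were checked because CGRP is made in such neurons. Of 7 measured, 5 were at or below 4 on all 19 arrays: Scn10a and Trpv1 of sensory neurons, Isl1, and Chat and Slc18a3 of cholinergic neurons. The mean over the 7 was 2.82 to 3.20 in the first set and 3.17 to 3.54 in the second, and its highest value was on albumin replicate 2, the array with the highest Calca. In the first set it was 2.86 to 2.94 at 48 h, when Calca was highest, and 2.94 to 3.20 at 7 and 8 h, when Calca was low. With 5 of the 7 at or below 4 throughout, this mean lies mostly at background. In the first set 1 marker was tested, at -1.04 for 48 h against 7 or 8 h. In the second set 2 were, both above 0 for albumin against sham with a median of 0.35, and none passed. The part of such neurons in the Calca values was not tested.

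The genes most like Calca were picked by the Pearson correlation of log2 signals, each centred on its set's mean, over the 19 arrays and among the 9845 genes tested in both sets. They were Tspan12, a tetraspanin of the cell surface (r = 0.966), Itgb2, the beta chain of leukocyte integrins (r = 0.941), and Lgals3, the galectin of activated macrophages and microglia (r = 0.940). The points share arrays, tissue and the course over time, and the values are a description. All 3 held within each set, at 0.969 and 0.970 for Tspan12 in the first and second set. Lgals3 had 11.13, 12.50 and 11.39 on the albumin arrays, against 6.71 and 8.55 on the sham arrays, a rise of 4.04 ± 0.65 (adjusted p = 0.044), and 9.57, 9.88, 9.69 and 8.37 with the blockers. Tspan12 moved over a far narrower range, with 10.69, 11.20 and 10.93 on the albumin arrays, against 9.97 and 10.47 on the sham arrays.

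**Figure D5:**
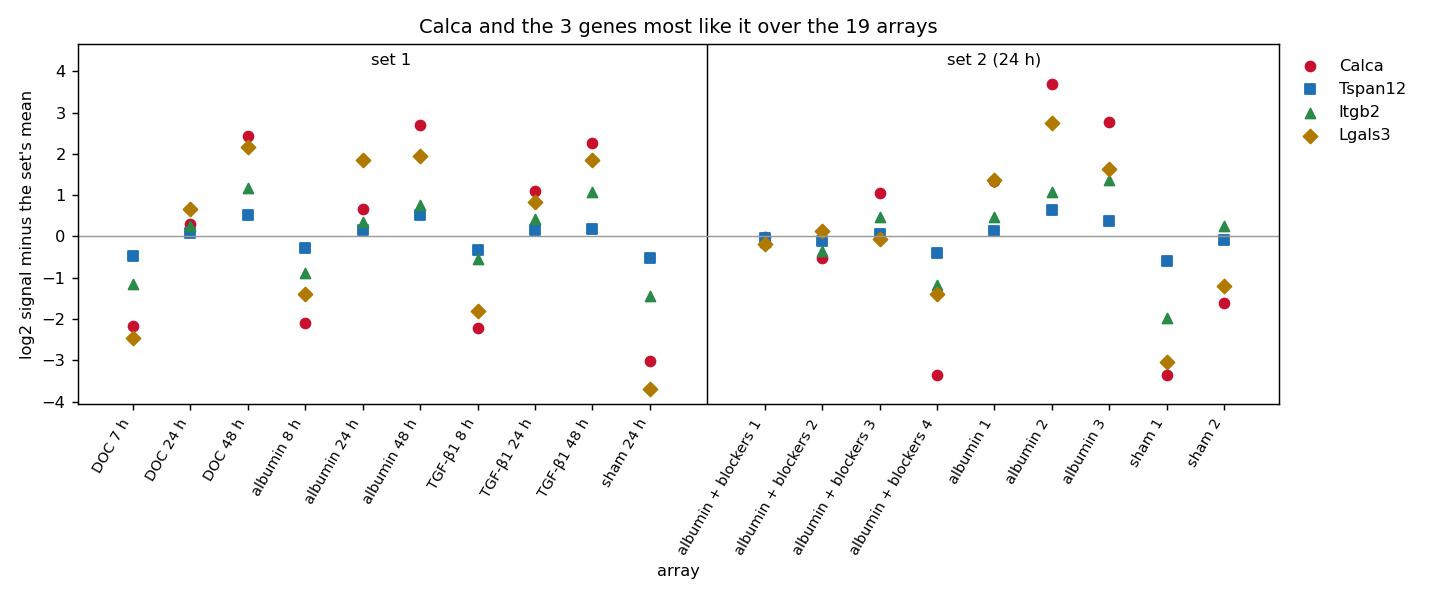
Log2 signal minus the mean of its set for Calca and the 3 genes with the highest correlation with it, on each of the 19 arrays. All 4 were lowest on sham or early arrays and highest at 48 h in the first set and on the albumin arrays of the second, with Tspan12 moving least.

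Markers of microglia and macrophages also rose by 48 h, but little over the first step, when Calca rose by 2.84. For 24 h against 7 or 8 h 1 of the 9 tested passed (Aif1), where 0.798% of all genes did. Their median was 0.14, with 5 of 9 above 0, where that of all genes was 0.03. For 48 h against 7 or 8 h 6 of the 9 tested rose (Aif1, Cd68, Csf1r, Itgam, Mrc1 and P2ry12) and none fell, where 5.09% of all genes passed. The median of the 9 was 1.63 where that of all genes was 0.01. Cd68, a lysosomal protein of macrophages, and Itgam were at or below 4 on the sham and on every 7, 8 and 24 h array. They were tested only through 48 h arrays, so nothing is read from their part in this count. Cd68 differed by 3.57 ± 0.23 (adjusted p = 0.000968 by limma), a rise that had to be present for it to be tested. The mean log2 signal over 10 markers was 5.30 to 5.77 at 7 and 8 h, 5.63 to 6.03 at 24 h and 7.00 to 7.27 at 48 h, against 5.23 in the sham. In the second set it was 6.57 to 6.91 with the blockers, 6.78 to 7.38 with albumin and 6.08 and 6.95 in the shams, and none of the 8 tested passed for albumin against sham. That mean joins markers that ran opposite ways: for albumin against sham Cd14, a receptor of monocytes, differed by 5.18 ± 1.43 (adjusted p = 0.102) and Itgam, a leukocyte integrin chain, by 1.835 ± 0.58 (adjusted p = 0.135), and P2ry12, the purinergic receptor of homeostatic microglia, by -2.38 ± 0.47 (adjusted p = 0.0558). For albumin plus blockers against albumin Cd14 differed by -3.43 ± 1.20 (adjusted p = 0.237), where Calca differed by -3.31. The part of these cells in the Calca values was not tested.

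Signals of meninges markers were lower on the albumin arrays than on the sham arrays of the second set. For albumin against sham 3 of the 11 tested meninges markers fell (Ogn, Ptgds and Slc13a4) and none rose, where 1.33% of all genes passed. Slc13a4 was at or below 4 on all 3 albumin arrays. It was tested only through sham and blocker arrays, so nothing is read from its part in this count. The median of these markers was -2.40 where that of all genes was 0.02. Their mean log2 signal over the 12 measured was 5.33 to 6.38 with albumin, against 8.07 and 8.41 in the shams, and was 6.79 to 7.98 with the blockers. Calca and Adm ran the opposite way across those groups, and the share of meninges in their values was not tested. Over time in the first set 4 of 9 meninges markers rose at 48 h over 7 or 8 h (Col1a1, Col1a2, Col3a1 and Lum), when Calca rose too. At 48 h 6 of the 9 were above 0. At 24 h over 7 or 8 h Calca rose as well, but the median of these markers was -0.75, with 2 of 9 above 0. The calls just named are those at 48 h. Of all genes 5.09% passed there. Col1a1 was above 4 only on the 48 h arrays, so it was tested only through them and nothing is read from its part in this count. Tagln, an actin-binding protein of smooth muscle, rose with albumin in the second set by 3.50 ± 0.59 (adjusted p = 0.0446), the 1 of 9 tested pericyte and smooth muscle markers that passed.

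Neutrophil markers were highest on the albumin and TGF-β1 arrays of 8 h, when Calca was low. Their mean log2 signal over 5 markers was 3.53, 3.26 and 3.32 with DOC at 7, 24 and 48 h, 5.53, 4.05 and 3.26 with albumin at 8, 24 and 48 h, and 4.48, 3.27 and 3.06 with TGF-β1, against 2.92 in the sham. The sham was the lowest of the 10 arrays, as it was for Calca, and the DOC arrays differed little. Cxcr2 and Mmp8 were at or below 4 on all arrays, and Csf3r on all of the first set. This mean therefore lies partly at background. In the second set it was 3.56 to 5.10 with the blockers, 4.36 to 6.82 with albumin and 2.96 and 3.73 in the shams, and it was highest on albumin replicate 3, not on the array with the most Calca. None of the 3 tested passed for albumin against sham. All 3 were above 0, with a median of 3.52 where that of all genes was 0.02. For albumin plus blockers against albumin all 3 were below 0, with a median of -2.16. Both medians had the direction of Calca, which differed by 5.09 and -3.31. For 48 h against 7 or 8 h in the first set the median of the 2 tested was -3.30, opposite to Calca. The part of neutrophils in the Calca values was not tested.

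Among the members, Calca and Calcb had a correlation of 0.774 over the 19 arrays after centring within each set, and Calca and Calcrl one of 0.729. Without albumin replicate 2 these were 0.806 and 0.677. In the first set Calcrl exceeded 4 on 0 arrays, Adm on 1 and Calcb on 2. Correlations with these 3 genes therefore rest in part on values near the floor. Calca and Adm had 0.498, and Calca and Ramp1 -0.03. The last depended on 1 array, being 0.564 without albumin replicate 2. Calca with Ramp3 gave -0.406. For the RAMP genes the genes most like each were Eml3 (r = 0.918), Apeh and Vps8 for Ramp1, Gatad1 (r = 0.862), Arhgef1 and Rhbdd2 for Ramp2, and Sod1 (r = 0.880), Syt1 and Ptgr3 for Ramp3. Without albumin replicate 2, Eml3 had 0.798 with Ramp1 and Vps8 0.667, and Arhgef1, at 0.861 with Ramp2 over both sets, had -0.02 within the second.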

How the data were processed

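The authors deposited log2 probe set signals of 19 Affymetrix rat arrays. GCRMA is the tool that the submitters' processing notes name. The version is not given in the sources used here. Quartiles differ between the sets, so levels were compared only within a set. Of 31099 probe sets, 20837 named 1 gene in the platform annotation, 425 several and 9780 none, and 57 were controls. Symbols were updated through RefSeq (GRCr8) for 20769 of them by gene ID and for 2 by accession, and 66 kept the old one. The highest-mean probe set stood for a gene.

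limma 3.58.1 (R 4.3.3) was fitted without a block in the second set, with the 3 groups sharing 1 spread, and with agent and time as additive terms in the first. The fits were tested on simulated data, where small changes were recovered only in part. Tests were two-sided, with Benjamini-Hochberg adjusted p-values over all genes tested. The second set held separate animals. Error is the spread between arrays, whose small number sets the precision. The members and the lists of related genes and markers were chosen with earlier results of these data known. Named were all members, up to 3 members of each list by the smallest p for albumin against sham in the second set, any that passed where 5 or fewer did, and the 3 genes most correlated with each member above the filter in both sets. Cd68, Csf1r and Mrc1 lie outside that rule and were named after their values were seen. Arrays were compared pairwise and 0 pairs were identical. The alternatives were other filters, priors, array centring, probe set choices, a replicate block, shams of the second set added to the first, no time term, and leaving out arrays. The labels give no albumin concentration for the blocker group.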

Additional observations from a re-analysis of the deposited data

Results flagged for a closer look

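Calcb had log2 signals of 2.81, 2.78, 2.81 and 2.49 on the 4 albumin plus blockers arrays. The gap of replicate 4 to the nearest other value was 0.911 of the group's range. With 7 such groups looked at, 1 for each gene, chance alone gives such a gap in about 5% of groups, and all 4 values were below the filter of 4. Replicate 4 also had the lowest Calca of its group.

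Ramp3 moved in different directions under the 3 agents between 7 or 8 h and 48 h. The difference was -0.068 with DOC, -0.76 with albumin and 0.42 with TGF-β1. Each rests on 1 array a time, and the difference between agents was not tested.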

How the results depend on the processing

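For 53 fitted differences of members, 871 alternatives were run. Of these 823 kept their direction and side of the threshold, 21 lost a call, 10 gained one and 17 changed sign. The causes were not tested. Only a called difference can lose its call, so the 21 are not to be read against all 871. For DOC against sham Calca lost its call in 4 of 9 fits with 1 array left out and in 3 of 8 other alternatives. For albumin against sham it lost the call in 2 of 9 and 3 of 8, and for 24 h in 2 of 9 and 3 of 7. Calcb lost its call for 48 h in 3 of 9 and 1 of 6, and Calca for 48 h in none. In the first set, the members called for DOC against sham and for albumin against sham were 0 with the mean of a gene's probe sets, with the next-highest probe set (chosen after seeing the data) or without a time term, and 3 and 2 with the second set's shams added, where 2560 and 1044 of all genes were called, in place of 47 and 37. For TGF-β1 against sham 1 was called with a filter on a mean above 5, with a trended robust prior or with those shams, where 1, 7 and 111 of all genes were called. For 24 h against 7 or 8 h 0 were called with no filter, with the mean or with the next-highest probe set, and for 48 h 1 with no filter or with the stricter filter. Leaving out 1 array gave 0 to 1 called for albumin against sham in the second set and for each first-set agent against sham, 0 to 1 for 24 h and 1 to 3 for 48 h. Calca lost its call for DOC without DOC 7 h (adjusted p = 0.0524), albumin 8 h, TGF-β1 8 h or TGF-β1 48 h, for albumin without albumin 8 h or TGF-β1 48 h, and for 24 h without DOC 7 h or TGF-β1 8 h. It kept the 48 h call throughout, at adjusted p-values up to 0.00823.

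Signs changed for Ramp1 under DOC with the second set's shams (-0.024) and for Calca between albumin and DOC with the next-highest probe set (-0.029). With single arrays left out, the second set's differences ranged over -0.82 to 0.24 (Ramp1) and -0.37 to 0.03 (Ramp3) for albumin against sham, -0.185 to 0.043 (Ramp2) for the blockers against albumin, and -0.12 to 0.66 (Adm) and -0.23 to 0.67 (Calcrl) for the blockers against sham. In the first set they ranged over -0.07 to 0.30 (Ramp1, DOC against sham), -0.51 to 0.12 (Ramp2, TGF-β1 against sham), -0.35 to 0.20 (Ramp3, 48 h), -0.14 to 0.30 (Calcb), -0.20 to 0.46 (Ramp2) and -0.13 to 0.41 (Ramp3) for albumin against DOC, and -0.081 to 0.385 (Calca, TGF-β1 against DOC).

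With replicate number as a block, 0 members were called in the second set, as without it, and 53 genes in place of 137 for albumin against sham. The labels do not say that a replicate number is shared between groups, so the numbers were not taken to pair the arrays. Same-numbered albumin and blocker arrays had correlations of their deviations from the group mean of 0.223, 0.219 and 0.05. For differently numbered ones these ranged over -0.26 to 0.185, and for same-numbered pairs that hold a sham over -0.136 to 0.143. Whether the arrays were paired was not settled. Over all genes, albumin against sham in the second set ranged over 4 to 145 calls across the alternatives that kept every array and over 1 to 190 with 1 array left out, from 137, and DOC against sham over 1 to 2560 across all alternatives, from 47. The sham of the first set could not be left out. Members below 4 lie near the array's floor.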

Other observations

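Of the 8 astrocyte markers tested, Gfap, the intermediate filament of reactive astrocytes, rose at 24 h over 7 or 8 h by 2.05 ± 0.29 (adjusted p = 0.0387) and at 48 h over 7 or 8 h by 2.19 ± 0.29 (adjusted p = 0.00945), and no other marker passed there. For albumin against sham in the second set Gfap differed by 1.28 ± 0.34 (adjusted p = 0.0971) and none of the 8 passed. None of the 10 cortical neuron markers passed in either set for those comparisons, with a median of -0.10 at 48 h over 7 or 8 h and of -0.13 for albumin against sham.

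Both tested red cell markers, a sign of blood in the tissue, fell at 48 h over 7 or 8 h: Hbb, a haemoglobin chain, by 1.09 (adjusted p = 0.0494), and Alas2, the haem synthesis enzyme of red cells, by 1.67 (adjusted p = 0.0175). Cd14, a receptor of monocytes, rose in the first set by 5.07 ± 0.58 for DOC against sham (adjusted p = 0.0458) and by 5.997 ± 0.58 for albumin against sham (adjusted p = 0.0232), the 2 comparisons in which Calca passed too. They share 1 sham array. Cd14 was at or below 4 on that sham array and was tested only through treated arrays, so nothing is read from its calls.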
